A study of Mus musculus with 8 samples.

Results

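Aminoacyl-tRNA synthetases are the enzymes that join each amino acid to its transfer RNA before the ribosome can use it. The family studied here held 37 genes named in advance by symbol, namely 20 synthetases of the cytosol, 15 of the mitochondrion and the scaffold proteins Aimp1 and Aimp2. Members were found by symbol in the deposited gene list and joined by transcript to the table of 28662 transcripts. Of the 37 genes, 35 had a row and all 35 were tested. They comprised 20 cytosolic and 13 mitochondrial synthetases and both scaffold proteins. Expression of Ears2 and Sars2, the mitochondrial enzymes for glutamate and serine, was not analysed here.

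RNA came from the right cortex of C57BL/6 mice, 4 bigenic and 4 nontransgenic. Bigenic mice carried Camk2a-tTa, which is active mainly in excitatory neurons of the forebrain, and a tetracycline-responsive transgene for human TDP-43 with a mutated nuclear localization signal (deltaNLS-hTDP-43). Both genotypes were fed doxycycline, which keeps the transgene silent, until 28 days of age, and were studied after 10 days without it. Nontransgenic controls carried neither transgene, so mice with Camk2a-tTa alone were not part of the comparison. Libraries were made from polyadenylated RNA of whole tissue, in which most other cell types do not drive the transgene. Mice are named below by their column in the deposited table (bg254, bg277, bg283 and bg286, and nt242, nt250, nt255 and nt278). Per-mouse values are always given in this order, and these numbers do not match the replicate numbers of the samples.

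Cytosolic synthetases charge the tRNAs that serve most protein synthesis, and a separate set of nuclear genes, mostly with symbols ending in 2, serves the ribosomes inside mitochondria. Gars and Kars each encode both forms from a single gene. Several cytosolic enzymes sit in a multi-synthetase complex held together by Aimp1, Aimp2 and Eef1e1. When the initiation factor eIF2 is phosphorylated under stress, translation of the transcription factor ATF4 rises, and ATF4 increases transcription of many cytosolic synthetases and of genes for amino acid supply. Neurons depend on these enzymes, and variants of GARS, YARS and AARS cause inherited neuropathy in people.

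Values are normalized counts, whole numbers that the authors obtained by scaling reads per mouse. The column totals lay between 20125748 and 21980950, and the reads behind them were estimated at 10.6 M in bg277 and between 15.2 M and 31.9 M in the other mice. On the first principal component bg277 lay at -46.0 and the other bigenic mice between -15.1 and -12.8. On the second bg277 lay at -22.3, the other bigenic mice between 15.0 and 15.9, and the nontransgenic mice between -16.4 and 0.978. Values without bg277 are given beside many, but not all, of the results that this mouse moves. Over all genes tested, 20.5% were higher and 15.4% lower in bigenic mice by the test described below. Of 13 neuronal markers tested 2 were higher and 6 lower. Their sum was 240333 normalized counts in bg277 and 178885 to 184820 in the other bigenic mice, against 218314 to 236835 in nontransgenic mice. Of the 14 choroid plexus markers listed, 5 were tested, all 5 were higher in bigenic mice, and their sum was 8559 to 19772 normalized counts in bigenic mice against 410 to 1281 in nontransgenic mice, lowest among the bigenic mice in bg277. The other 9 were not tested. Of 10 astrocyte markers 5 were lower and 0 higher (sums of 137945 to 164271 against 173634 to 189388). Of 8 microglial markers tested 5 were lower and 0 higher (sums of 4261 to 5251 against 5500 to 6412). Among the bigenic mice bg277 had the highest neuronal sum and the lowest astrocyte and microglial sums. The part of these markers in the results below was not tested, and in whole tissue fewer cells of a type and less RNA per cell cannot be told apart.

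Most cytosolic synthetases were more abundant in bigenic mice, while most mitochondrial ones did not pass the test. The genotypes were set against each other in limma on log2(normalized count + 1) over 10588 genes, and a gene passed at an adjusted p-value below 0.05. Of the 20 cytosolic synthetases 15 rose and 0 fell, while of all genes tested 35.9% passed, 20.5% higher and 15.4% lower. The median log2(fold change) of the 20 was 0.57, beside 0.03 for all genes tested. Among the 13 mitochondrial synthetases 2 rose and 1 fell, with a median of 0.15 (0.09 without bg277), and neither scaffold protein passed. In all, 19 of the 35 members had every bigenic mouse above every nontransgenic mouse, compared with 22.3% of all genes tested, and 0 members had every bigenic mouse below, compared with 16.7%. Members were chosen with earlier results of these mice known, so these counts are a description of the family.

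**Figure D1:**
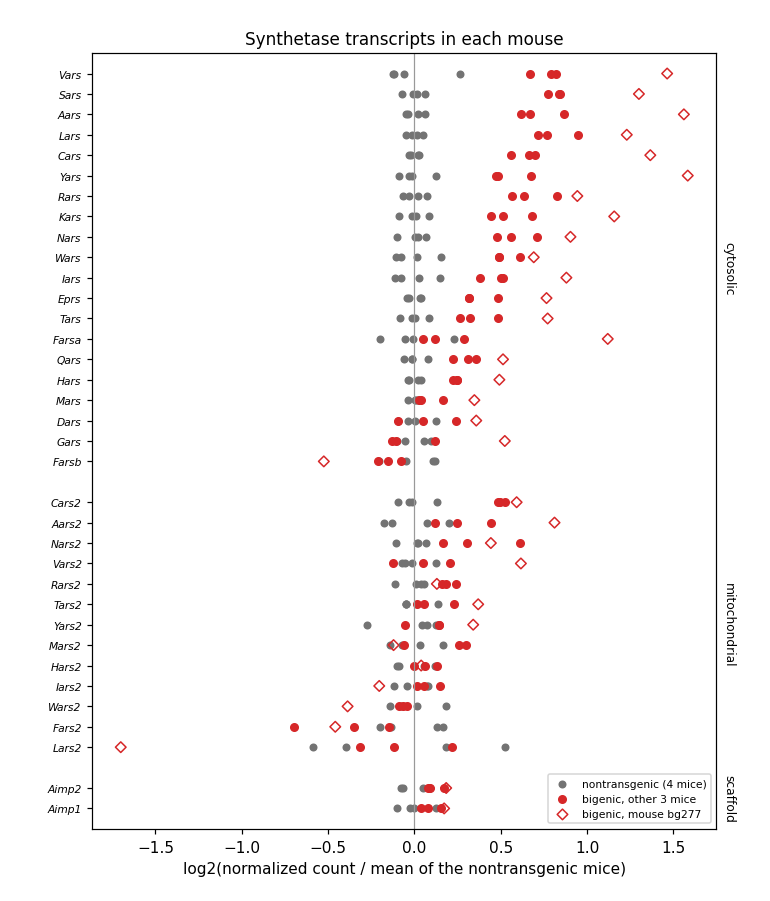
Each row is a transcript and each point a mouse, placed by the log2 of its normalized count over the mean of the 4 nontransgenic mice, with grey for nontransgenic mice, filled red for bigenic mice and open diamonds for the bigenic mouse bg277. All bigenic points lie to the right of all grey points for 15 cytosolic synthetases that passed the test, and bg277 is usually the farthest.

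Seryl-tRNA synthetase (Sars, uc008qza.1, chromosome 3, 108227783 to 108248127 on mm9, 12 exon blocks) and leucyl-tRNA synthetase (Lars, uc008etp.1, chromosome 18, 42362004 to 42421781, 32 exon blocks) had the smallest adjusted p-values of the family. Sars had 5873, 8080, 5618 and 5891 normalized counts with the transgenes and 3266, 3121, 3310 and 3423 without them. The means were 6366 ± 1150 and 3280 ± 125 (SD, n = 4), a ratio of 1.94, with a log2(fold change) of 0.94 (SE, the standard error, 0.11, adjusted p by limma = 0.000298). The lowest bigenic mouse was far above the highest nontransgenic one, and bg277 was the highest of all. For Lars, an enzyme of the multi-synthetase complex whose protein also takes part in leucine sensing, values were 2062, 2504, 1821 and 1754 against 1078, 1103, 1030 and 1058. Its log2(fold change) was 0.92 (SE 0.11, adjusted p by limma = 0.000298). The nontransgenic mice lay close together, with a coefficient of variation of 2.90%, and the groups did not overlap.

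Arginyl-tRNA synthetase (Rars), also a member of the complex, had 1386, 1503, 1213 and 1156 normalized counts against 793, 746, 764 and 822 and rose by a log2(fold change) of 0.74 (SE 0.10). Asparaginyl-tRNA synthetase (Nars), the cytosolic enzyme with the highest level per length, had 7162, 8194, 6105 and 6464 against 4587, 4083, 4448 and 4396 and rose by 0.67 (SE 0.10). Tryptophanyl-tRNA synthetase (Wars), which is also induced by interferon, had 1997, 2296, 1993 and 2177 against 1579, 1350, 1320 and 1438 and rose by 0.57 (SE 0.09). In none of these 3 genes did the groups overlap, and bg277 stood less far from the other bigenic mice than it did for Sars.

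Other genes that rose had more spread among the bigenic mice. The valyl enzyme (Vars) had 981, 1530, 882 and 958 normalized counts in bigenic mice and 511, 531, 509 and 667 in nontransgenic mice, a log2(fold change) of 0.94 (SE 0.17, adjusted p by limma = 0.00240). Its cysteinyl counterpart (Cars) had 1023, 1789, 1099 and 1128 against 707, 679, 704 and 685, a log2(fold change) of 0.82 (SE 0.16). For the alanyl enzyme (Aars, chromosome 8, 113557044 to 113581564), bigenic mice had 5942, 9619, 4994 and 5190 against 3310, 3172, 3149 and 3408, a log2(fold change) of 0.93 (SE 0.18, adjusted p by limma = 0.00354). In all of them bg277 carried the highest value, and the other 3 bigenic mice still lay above the nontransgenic mice. Tyrosyl-tRNA synthetase (Yars) also stood apart in bg277, with 3878, 7271, 3396 and 3372 normalized counts against 2371, 2284, 2399 and 2650. Its log2(fold change) was 0.81 (SE 0.22, adjusted p by limma = 0.0164) with all mice and 0.55 (SE 0.07, adjusted p by limma = 0.000192) without bg277. Vars, Cars, Aars and Yars each share exon sequence with a gene of the other strand, and nothing states that reads were counted by strand, so part of their counts may belong to the partner.

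Changes of the remaining cytosolic enzymes that rose lay between 0.30 and 0.70. Lysyl (Kars), isoleucyl (Iars), glutamyl-prolyl (Eprs), threonyl (Tars), glutaminyl (Qars) and histidyl (Hars) enzymes had log2(fold changes) of 0.70, 0.57, 0.47, 0.46, 0.35 and 0.30 and adjusted p by limma between 0.00405 and 0.0150. Hars showed the smallest rise, from 2511, 2382, 2393 and 2481 normalized counts in nontransgenic mice to 2901, 3435, 2892 and 2848 in bigenic mice, without overlap. Its exons overlap those of Hars2, which starts from the other strand of the same region. Over the 17 members that rose, 9 did so by at least 1.5-fold on the fitted scale, all of them cytosolic.

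**Figure D2:**
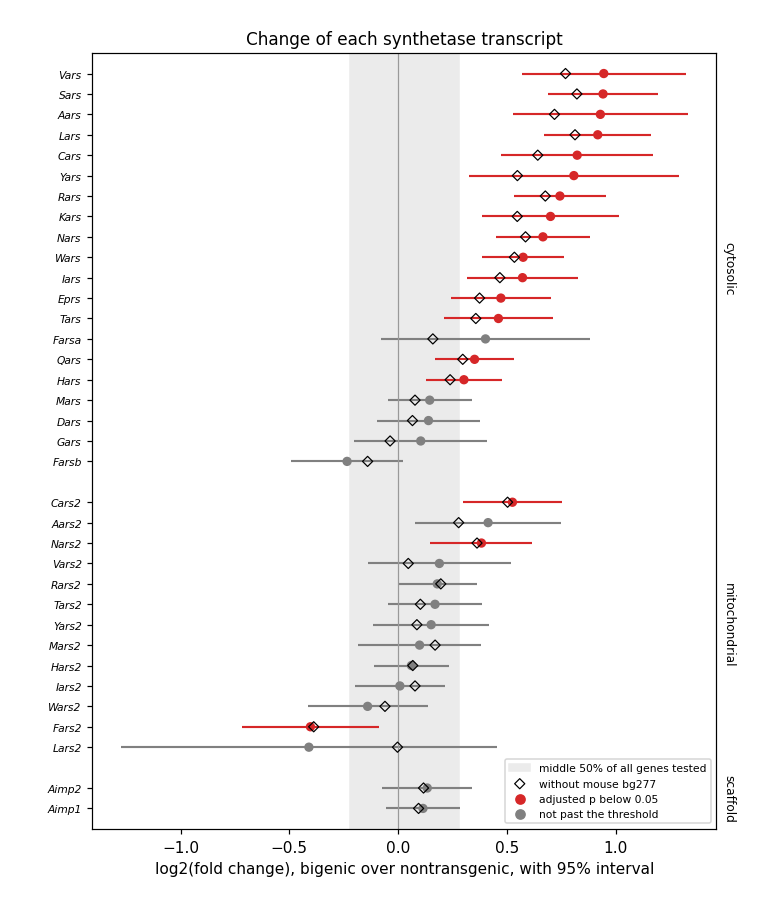
Points show the log2(fold change) of each transcript with its 95% interval, red where the limma adjusted p-value is below 0.05, open diamonds show the value without mouse bg277, and the grey band holds the middle 50% of all genes tested. Without bg277 the same 15 cytosolic synthetases passed, with smaller changes for most.

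Leaving out bg277 lowered the size of most cytosolic changes but not the calls. In 16 of the 17 members that rose, and in 19 of the 20 cytosolic synthetases, bg277 had the highest value of the bigenic mice, compared with 43.1% of all genes tested. Without it the 15 cytosolic synthetases all still rose, where 25.3% of all genes tested did and 20.2% fell, and their list's median log2(fold change) went from 0.57 to 0.50. Aars went from 0.93 to 0.72, Cars from 0.82 to 0.64 and Vars from 0.94 to 0.77. Summed over the 20 genes, cytosolic synthetases had 50673, 68198, 45832 and 46858 normalized counts in bigenic mice and 35336, 32897, 33734 and 35459 in nontransgenic mice. The sum of the 13 mitochondrial ones was 11862, 8979, 14207 and 12660 against 13481, 15439, 10500 and 11100, with bg277 the lowest of all. These sums give most weight to a few abundant transcripts, Lars2 among the mitochondrial ones.

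**Figure D3:**
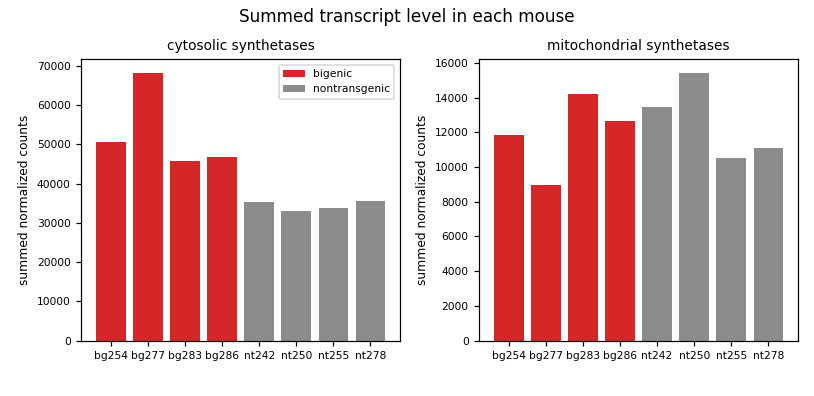
Bars start at 0 and give the sum of normalized counts over 20 cytosolic (left) and 13 mitochondrial (right) synthetases in each of the 8 mice, red for bigenic and grey for nontransgenic. The lowest bigenic sum of the cytosolic genes, 45832, is above the highest nontransgenic sum, 35459, while the mitochondrial sums overlap.

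The 5 cytosolic synthetases that did not pass were Farsa, Farsb, Gars, Mars and Dars. Glycyl-tRNA synthetase (Gars) had 3765, 4980, 3162 and 3216 normalized counts in bigenic mice and 3595, 3227, 3334 and 3699 in nontransgenic mice. Its log2(fold change) was 0.10 (95% interval -0.20 to 0.41, adjusted p by limma = 0.578), and without bg277 it was -0.04. Methionyl-tRNA synthetase (Mars) had 957, 1084, 874 and 868 against 859, 829, 866 and 854, a log2(fold change) of 0.14 (95% interval -0.05 to 0.34). Aspartyl-tRNA synthetase (Dars) stood at 0.14 (95% interval -0.10 to 0.38). Without bg277 Mars was at 0.08 and Dars at 0.07. The upper ends of these intervals are below the changes of Sars and Lars. Exons of Mars overlap those of Ddit3 on the opposite strand, an ATF4-responsive gene that rose by 1.06 (adjusted p by limma = 0.0205).

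Phenylalanyl-tRNA synthetase is built from the products of Farsa and Farsb. Farsa, the alpha subunit, had 476, 1001, 500 and 562 normalized counts against 444, 401, 458 and 539, and its log2(fold change) of 0.40 (95% interval -0.08 to 0.88) fell to 0.16 without bg277. Farsb, the beta subunit, had 837, 647, 883 and 804 against 1013, 899, 1003 and 808, a log2(fold change) of -0.23 (95% interval -0.49 to 0.02, adjusted p by limma = 0.138) that was -0.14 without bg277. Farsb overlaps exons of Sgpp2 on the other strand. In bg277 the subunits were at opposite ends of their groups. Neither subunit passed the test, and the difference between them was not tested.

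Cytosolic synthetases were also grouped by enzyme class and by membership of the complex, with earlier results of these mice known. Class I enzymes share a Rossmann-type catalytic fold and class II enzymes an antiparallel sheet, and Eprs holds a domain of each. Beside the 20.5% of all genes tested that rose and the 15.4% that fell, the counts were as follows. Of 9 class I enzymes 8 rose (median log2(fold change) 0.74), and of 10 class II enzymes 6 rose (median 0.43). Among the 11 components of the multi-synthetase complex 6 rose (median 0.35), namely Lars, Rars, Iars, Kars, Eprs and Qars. Mars and Dars did not pass, nor did the scaffold proteins. Of the 12 cytosolic synthetases outside the complex 9 rose (median 0.62). Scaffold protein Aimp1 had 956, 968, 908 and 883 normalized counts against 937, 843, 856 and 800 (log2(fold change) 0.11, 95% interval -0.06 to 0.29). Aimp2 had 276, 294, 273 and 292 against 275, 245, 268 and 247 (log2(fold change) 0.13, 95% interval -0.07 to 0.34), and its exons overlap those of Eif2ak1, an eIF2 kinase gene that rose by 0.48, on the opposite strand. Eef1e1, the scaffold protein that is not in the family list, had a log2(fold change) of 0.06 (adjusted p by limma = 0.784), and 0.17 without bg277. Differences between these groups of genes were not tested.

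Of 12 cytosolic synthetases listed as ATF4-responsive from work in other systems, 10 rose (list median 0.62 on the log2 scale), beside 20.5% of all genes tested. The exceptions were Gars and Mars. Of the other 8 cytosolic synthetases 5 rose, with a median of 0.38, led by Vars and Rars. The ATF4 site in such genes joins a C/EBP and an ATF sequence. RefSeq promoter windows (GRCm38.p6, 250 bases before to 50 bases after the gene start) were found for 29 of the 37 genes and searched on both strands for TGATGNAA, which also covers TTNCATCA. The sequence was present in 5 of 13 cytosolic and 0 of 14 mitochondrial synthetases with a window (Ears2 and Sars2 included), and in 3.97% of all 32851 windows. A match of each of the 5 genes is printed, with capitals for the match and the gene's own strand from 5′ to 3′. The capitals are alike through the search itself, which leaves only the base N open. Aars held another match, at chr8:111033719-111033748, that is not printed. Those printed are at chr8:111033840-111033869 (Aars, plus strand), chr6:55037960-55037989 (Gars, plus strand), chr13:49682126-49682155 (Iars, plus strand), chr15:11399655-11399684 (Tars, minus strand) and chr4:129189895-129189924 (Yars, plus strand).
Aars: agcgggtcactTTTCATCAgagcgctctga
Gars: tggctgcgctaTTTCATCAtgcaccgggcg
Iars: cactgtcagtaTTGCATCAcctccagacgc
Tars: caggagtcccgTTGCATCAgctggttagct
Yars: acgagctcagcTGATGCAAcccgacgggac
Of these 5 genes, 4 rose and Gars did not pass. A match in a window does not show binding, and windows for Lars, Nars, Rars, Vars, Cars, Wars and others were not used here.

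Mitochondrial synthetases were mostly close to the nontransgenic level. Cars2, the mitochondrial cysteinyl enzyme, had 254, 271, 259 and 251 normalized counts in bigenic mice and 176, 197, 168 and 178 in nontransgenic mice, a log2(fold change) of 0.52 (SE 0.10, adjusted p by limma = 0.00365). Its bigenic values were nearly equal, with bg277 among them. Nars2, the asparaginyl enzyme, had 665, 591, 488 and 537 against 404, 441, 439 and 455 and rose by 0.38 (SE 0.11, adjusted p by limma = 0.0184), and its adjusted p-value was 0.0585 without nt242. Exons of Nars2 overlap those of C230038L03Rik on the other strand. Fars2, the phenylalanyl enzyme, had 293, 236, 254 and 200 against 295, 355, 364 and 283. Its log2(fold change) of -0.40 (SE 0.14) had a adjusted p by limma of 0.0480, the groups overlapped, and the call was lost in 5 of the 8 fits that left out 1 mouse each, namely those without bg283, bg286, nt242, nt250 or nt255.

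The other 10 mitochondrial synthetases did not pass. Aars2, the alanyl enzyme, had 619, 1001, 676 and 777 normalized counts against 599, 504, 522 and 656, a log2(fold change) of 0.41 (adjusted p by limma = 0.0560). It passed in the fits without bg254 and without nt278, and had a log2(fold change) of 0.28 without bg277. Rars2 had 399, 391, 405 and 423 against 367, 359, 372 and 331, without overlap between groups but with a adjusted p by limma of 0.112. Iars2 and Hars2 had log2(fold changes) of 0.01 (95% interval -0.20 to 0.21) and 0.06 (95% interval -0.11 to 0.23). Lars2, the leucyl enzyme, spread widely in both groups, with 5286, 2021, 7636 and 6049 against 7453, 9465, 4366 and 4999, and its 95% interval of -1.27 to 0.45 was too wide to place it. Without bg277 Lars2 was at -0.00320. Log2(fold changes) of the remaining members, Tars2, Vars2, Yars2, Wars2 and Mars2, lay between -0.14 and 0.19, and between -0.06 and 0.17 without bg277.

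For 12 amino acids a cytosolic and a mitochondrial gene could be set side by side in each mouse. In 7 of the 12 pairs every bigenic ratio of cytosolic to mitochondrial counts was above every nontransgenic ratio. The same count was not made for other pairs of genes, while 22.3% of single genes tested had every bigenic mouse above every nontransgenic mouse. For Lars to Lars2 the groups were barely apart, with a lowest bigenic ratio of 0.238 and a highest nontransgenic ratio of 0.236. Vars to Vars2 ranged from 2.34 to 2.80 in bigenic mice and from 1.45 to 1.71 in nontransgenic mice. Wars to Wars2 ranged from 8.98 to 12.9 against 5.11 to 7.48. The ratio of Mars to Mars2 overlapped, at 2.36 to 3.94 against 2.56 to 3.20, and so did that of Cars to Cars2, where both genes rose. These ratios are descriptions and were not tested.

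Levels were compared between genes as normalized counts per kilobase of the longest coding transcript in GENCODE. In nontransgenic mice the cytosolic synthetases had a median of 465 per kb, from 134 for Vars to 1664 for Nars, and the mitochondrial synthetases a median of 153 per kb, from 52.8 for Wars2 to 1693 for Lars2. At the top of the cytosolic order stood Nars at 1664 ± 80.9, Gars at 1449 ± 92.1, Hars at 1229 ± 32.2, Sars at 919 ± 34.996 and Yars at 834 ± 54.0 (SD, n = 4). In bigenic mice Nars was at 2652 ± 349.5, Sars at 1783 ± 322, Gars at 1582 ± 353, Yars at 1539.8 ± 645 and Hars at 1519 ± 140.1 (SD, n = 4). Sars and Gars, Gars and Yars, and Yars and Hars, neighbours in this order, had means closer together than 1 SD. Read within each bigenic mouse, Sars was above Gars per kb in every one, while the other neighbours changed order between mice. These orders were not tested. Lars2 was an exception among mitochondrial genes, since the next highest, Hars2, had 307 ± 22.9 per kb (SD, n = 4) in nontransgenic mice. The Lars2 level varied widely, with a coefficient of variation of 35.7% in nontransgenic mice. Of its 50-base exon windows 95.7% occurred once in the genome, the lowest share among the mitochondrial synthetases. The part of repeated sequence in this level was not tested.

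**Figure D4:**
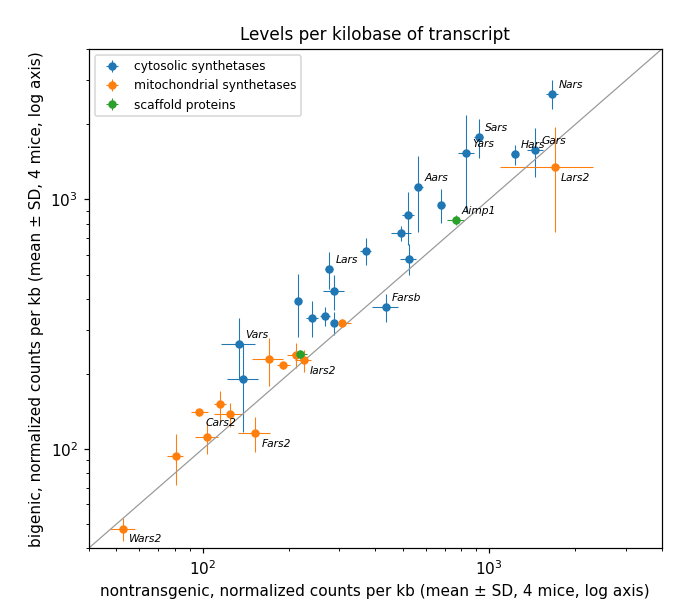
Each point is a transcript, with its mean normalized count per kilobase in 4 nontransgenic mice (horizontal log axis) and 4 bigenic mice (vertical log axis), bars for 1 SD, and a line of equality. Cytosolic synthetases lie mostly above the line, mitochondrial ones along it, and Lars2 has wide bars on both axes.

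Other genes of the pathway were read from lists fixed by function, with earlier results of these mice known. Among 15 tested genes of the amino acid response 8 rose and 0 fell (median log2(fold change) 0.48), beside 20.5% and 15.4% of all genes tested. This list also holds the genes of all eIF2 kinases and Eif2s1, so it is wider than its name. A further 5 listed genes were not tested. Atf4 had 10199, 11470, 6822 and 7318 normalized counts in bigenic mice and 3315, 3207, 3331 and 4049 in nontransgenic mice, a log2(fold change) of 1.34 (SE 0.16, adjusted p by limma = 0.000321). All 4 bigenic mice were well above all nontransgenic mice. Chac1, which degrades glutathione, rose by 1.60, the leucine sensor Sesn2 by 1.04 and the transcription factor Atf5 by 0.89. Eif2ak4 (GCN2), the kinase that senses uncharged tRNA, had a log2(fold change) of 0.11 (adjusted p by limma = 0.296). Of the other eIF2 kinase genes, Eif2ak3 rose by 0.46 (adjusted p by limma = 0.00384) and Eif2ak1 by 0.48 (adjusted p by limma = 0.00460). Eif2ak2, at -0.26, did not pass (adjusted p by limma = 0.151).

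Genes that supply amino acids were read against the 20.5% of all genes tested that rose and the 15.4% that fell. Of 16 amino acid transporters tested 10 rose and 2 fell (median log2(fold change) 0.39), led by the neutral amino acid carrier Slc1a4 at 0.91, the cationic carrier Slc7a1 at 0.74, the lysosomal Slc38a9 at 0.75 and Slc7a8 at 0.61. The falls were those of Slc7a2 and the cystine carrier Slc7a11, at -0.49 and -0.53, and only 1 of these calls was left in the fits without bg254, nt242, nt250 or nt255. Of 14 genes of amino acid synthesis and interconversion 3 rose and 3 fell (median -0.01), shares of 21.4% each that are near those of all genes. Asparagine synthetase (Asns) had 2849, 3276, 2833 and 2806 normalized counts against 2085, 1876, 1986 and 1900 and rose by 0.58 (adjusted p by limma = 0.000517). Shmt2, the mitochondrial serine hydroxymethyltransferase, rose by 0.87 and Got2 by 0.46. Got1 and Glul were among those that fell, at -0.32 and -0.40, and Glul was at -0.25 without bg277.

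Genes that make and handle tRNA were read against the same shares, 20.5% higher and 15.4% lower. Of 22 RNA polymerase III genes, which transcribe tRNA genes, 9 rose and 0 fell (5 rose without nt250 or without nt255, median log2(fold change) 0.29), with Crcp at 0.80, Gtf3c4 at 0.48, Polr3a at 0.49 and Polr3g at 0.92. Of 39 genes of tRNA processing and export 13 rose and 4 fell (median 0.13), while 2 fell in the fits without bg254, bg283, nt242, nt250 or nt255 and 6 without bg277. Those with the smallest adjusted p-values were the 3′ end nucleases Elac1 (0.77) and Elac2 (0.68), the CCA-adding enzyme Trnt1 (0.71), which completes the end that synthetases charge, and the methyltransferase Nsun2 (0.54). The 4 that fell, named after their values were seen, were the tRNA exporter Xpot (-0.52), Fam98b (-0.88), Elp4 (-0.48) and Trmt6 (-0.23). Of 7 genes for the elongation factors that carry charged tRNA to the ribosome and for their partner proteins, 1 rose and 1 fell. The rise was that of Eef1a2 (0.34), the form of neurons and muscle. The fall was that of Eef1a1 (-0.82), the form of most other tissues. Among 11 other genes of tRNA charging 1 rose, Gatc (0.48), and 2 fell, Dtd1 (-0.44) and Pstk (-0.36), of which 1 was left in 6 of the 8 fits without 1 mouse, those without bg277 or nt278 being the exceptions.

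**Figure D5:**
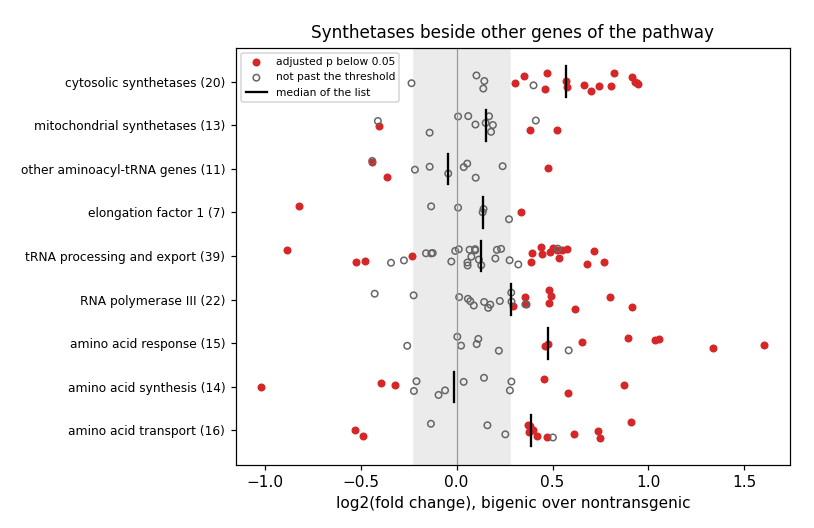
Points are genes placed by log2(fold change), red where the limma adjusted p-value is below 0.05 and open otherwise, in rows for each list with the number tested in brackets; black lines are list medians and the grey band holds the middle 50% of all genes tested. The medians of the cytosolic synthetases, the amino acid response and the transporters are 0.57, 0.48 and 0.39, to the right of the band. That of the RNA polymerase III genes, 0.29, is barely past its right edge at 0.28.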

How the data were processed

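The authors sequenced cortical poly(A)+ RNA of 4 mice per genotype. Adaptors were removed by cutadapt, Bowtie 0.12.7 placed the reads on mm9, and uniquely placed reads were counted per exon by bedtools and then summed per gene. The deposited values are a normalized score, namely read counts scaled by 1 factor for each mouse and given as whole numbers, so they are not raw counts and tests for raw counts were not run. The worth of 1 read in each column was estimated from whole numbers left out or doubled by the scaling, a procedure checked on simulated data. It gave 3 reads as 1.94 to 6.20 normalized counts, a floor that covers counting error only, and every member lay far above it. The second deposited table served for symbols and transcript names only. Its fold changes, p-values and mean values, from the authors' DESeq2 comparison, were not used.

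Genes with at least 10 normalized counts per 1 M of the column total in at least 1 mouse were kept (10588 genes). Values were transformed as log2(value + 1), a scale that understates the change of low genes, and compared with limma 3.58.1 in R 4.3.3 (lmFit, eBayes with trend), with Benjamini-Hochberg adjustment over all genes and a threshold of 0.05. The fit was tested on simulated data. Columns carry a group but no replicate number, and nothing used here says more of how the mice were paired or batched. The members and lists were chosen with earlier results of these data known. All 37 members are accounted for. Values per mouse are given for the 8 cytosolic and 3 mitochondrial synthetases with the smallest adjusted p-values, both scaffold proteins and members set apart by 1 mouse, and up to 4 genes with the smallest adjusted p-values are named per other list, besides Atf4, Asns, Eef1e1 and Eif2ak4. Other genes were named after their values were seen. Positions, overlaps and lengths came from GENCODE on the same build (NCBIM37), where at least 93.6% of the 50-base exon windows of each member occurred once in the genome. Python 3.11.15, numpy 2.4.6 and pandas 2.3.3 were used. Some genes and sequences of the lists are not reported here.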

Additional observations from a re-analysis of the deposited data

Results flagged for a closer look

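In each group of 4 mice, the highest and the lowest value of every member were compared with the nearest other value. In 9 of 70 groups the gap, as a share of the whole range, passed Dixon's 95% critical value. Chance flags about 1 group in 20 where groups are independent and values normal, but these groups share the same mice. The share flagged over all genes was not determined, so the flags are not known to be particular to this family. The mouse bg277 gave 7 of the 9. It was the highest bigenic mouse for Cars (1789 normalized counts), Farsa (1001), Hars (3435), Sars (8080), Vars (1530) and Yars (7271) and the lowest for Wars2 (178). The other 2 came from nt278, the highest nontransgenic mouse for Vars (667) and Tars2 (770). The library of bg277 was also the shallowest, with about 10.6 M reads on genes, and its limma array weight was 0.0843, against 0.461 to 3.06 in the other 7 mice. The part of depth in these values was not tested.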

How the results depend on the processing

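No paired analysis was possible because the columns carry no replicate number that matches the labels, so no replicate block could be fitted. Other pseudocounts (0.1 and 10), filters, scalings (equal totals, quantile), limma array weights, no trend, a threshold of 0.01 and leaving out each mouse were tried. Leaving out bg277 and nt278 together was chosen after seeing the data. The median of all genes stayed between -0.03 and 0.04. Of the 20 cytosolic synthetases 12 to 16 rose under these settings, 15 in each fit that left out 1 mouse, while all members gave 16 to 18 higher and 0 to 1 lower in those fits. The cause of the moves below was not tested. Members lower went from 1 to 0 with no filter, with the filter in every mouse, with equal totals and at 0.01, and to 2 with array weights and without bg277 and nt278. Mitochondrial synthetases higher went from 2 to 1 with the filter in every mouse and at 0.01, to 5 with array weights, and to 1 to 3 without 1 mouse. Synthetases outside the complex, class II and those not listed as ATF4-responsive each had 1 lower, Farsb, with array weights and without both mice. At 0.01, other tRNA charging genes and elongation factor genes had 0 higher and 0 lower, tRNA processing genes 1 lower, RNA polymerase III genes 5 higher and transporters 0 lower. With array weights, other tRNA charging genes had 4 lower, tRNA processing genes 8 lower, RNA polymerase III genes 14 higher and the amino acid response 1 lower. With no filter, other tRNA charging genes had 1 lower and tRNA processing genes 2 lower. Processing genes had 2 lower with equal totals and 8 without both mice. Without 1 mouse, other charging genes had 1 to 2 lower, processing genes 12 to 16 higher and 2 to 6 lower, RNA polymerase III genes 5 to 9 higher, the amino acid response 6 to 9 higher and 0 to 1 lower, synthesis genes 3 to 4 higher and 2 to 3 lower, and transporters 10 to 11 higher and 1 to 2 lower. RNA polymerase III genes were at 5 without nt250 and without nt255. Signs turned only for members that had not passed. The log2 fold change of Gars was -0.0550 with array weights, -0.00489 without both mice and -0.0372 to 0.181 without 1 mouse. The log2 fold change of Iars2 was -0.0449 with quantile scaling and -0.0409 to 0.0773 without 1 mouse. The log2 fold change of Lars2 was 0.0339 with array weights and the log2 fold change of Yars2 was -0.00245 without both mice. At 0.01 the calls of Hars, Tars, Yars, Nars2 and Fars2 were lost.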
